A study of Mus musculus with 16 samples.

Results

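The genes of the natriuretic peptide system were followed in atria and ventricles of mouse hearts at embryonic stage E15.5. The set holds 8 genes taken by name from the 16118 genes of the deposited table: Nppa, Nppb, Corin, Furin, Pam, Npr1, Npr2 and Npr3. All 8 were found and all 8 passed the filter on low values. The tissue came from 8 embryos, each of which gave 1 atrial and 1 ventricular library, so that there were 4 groups of 4 libraries. All embryos, controls included, were Meis1flox/flox and Meis2flox/flox. The double knockout (dKO) embryos also carried 1 copy of an α-MHC-Cre transgene (aMHC tg/wt), which drives Cre recombinase from a cardiomyocyte promoter, and the controls carried none (aMHC +/+). In every comparison of dKO with control, the presence of Cre therefore went with the deletion of both genes, which encode homeobox transcription factors. The effects of Cre and deletion cannot be told apart there. The series design speaks of a constitutive or an inducible deletion, and the labels do not say which applied. The outflow tract was removed before the chambers were separated. In bulk tissue, fewer cells of a type and less RNA per cell cannot be told apart.

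Natriuretic peptides are hormones of the heart. Nppa and Nppb encode the precursors of atrial and B-type natriuretic peptide, which are cut to their active forms by proteases, among them the membrane protease corin and the convertase furin, and atrial myocytes store atrial natriuretic peptide in granules whose membranes are rich in the amidating enzyme encoded by Pam. The peptides act through guanylyl cyclase receptors that make cyclic GMP, while a further receptor removes them from the circulation. Nppa is used as a marker of working myocardium in the embryo, where ventricles express it until its expression becomes largely atrial after birth.

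Values are deposited CPM, read counts normalized for library size in a way that is not given. Differences are on the scale of log2(CPM + 1). Recovered reads ranged from 7.88 to 23.0 M (megareads) per library, and the lowest count of a member was 163 reads, for Npr1. All dKO ventricle libraries were shallower than all control ventricle libraries. Meis1 stood at 26.1 ± 3.19 CPM in dKO and 40.4 ± 2.61 CPM in control atria (SD, n = 4, exact permutation p = 0.0286, the smallest possible) but at 40.9 ± 2.41 and 41.5 ± 3.96 CPM in dKO and control ventricles, 98.5% of control. Meis2 stood at 39.2 ± 3.46 CPM in control and 23.4 ± 2.85 CPM in dKO ventricles (SD, n = 4, exact permutation p = 0.0286) but at 105% of control in atria (exact permutation p = 0.457). These values count reads over the whole gene, so reads from outside the floxed exons are included. The chamber labels matched the myocyte markers: the summed level of 6 ventricular markers was 17640 to 21870 CPM in ventricles and 248.4 to 1563 CPM in atria, and that of 6 atrial markers was 6798 to 8389 CPM in atria and 1182 to 1685 CPM in ventricles. The numbers in the sample titles fall into 3 sets, of which 1, called the shared title number, holds 2 control and 2 dKO embryos. The other two hold dKO embryo 1 alone, and control embryos 3 and 4 with dKO embryo 4, too few for a value of their own.

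Nppa, the precursor gene of atrial natriuretic peptide, lies on chromosome 4 (148000722 to 148002079, plus strand, build GRCm38, ENSMUSG00000041616). Nppb, the precursor gene of B-type natriuretic peptide, lies 13516 bases before it on the same strand (147985788 to 147987205, ENSMUSG00000029019). Corin, on chromosome 5 (72300025 to 72504473, minus strand, ENSMUSG00000005220), encodes the protease that cuts pro-atrial natriuretic peptide at the myocyte surface. The windows from 250 bases before to 50 bases after the RefSeq start of these genes, chr4:148000472-148000771 (plus strand), chr4:147985650-147985949 (plus strand) and chr5:72504491-72504790 (minus strand) of GRCm38.p6, are printed because Nppa and Nppb are neighbours that responded unequally and Corin moved the other way. Each is written 5′ to 3′ along the gene, with capitals at every match, on either strand, to 6 strings. These are the MEIS string, written TGACAG for the core bound by MEIS proteins, the GATA string, written GATAA for GATA factors, the T-box string, written TCACACC for T-box factors, the NKX2-5 string, written AAGTG for that homeobox factor, the TEAD string, written GGAATG for TEAD factors, and the TATA box, written TATAAA for the core promoter element.
Nppa: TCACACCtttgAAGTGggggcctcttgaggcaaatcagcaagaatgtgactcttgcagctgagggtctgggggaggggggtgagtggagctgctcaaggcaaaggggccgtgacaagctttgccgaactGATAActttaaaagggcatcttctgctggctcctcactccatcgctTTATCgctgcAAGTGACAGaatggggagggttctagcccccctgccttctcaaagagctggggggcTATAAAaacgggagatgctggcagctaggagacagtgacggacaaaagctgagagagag
Nppb: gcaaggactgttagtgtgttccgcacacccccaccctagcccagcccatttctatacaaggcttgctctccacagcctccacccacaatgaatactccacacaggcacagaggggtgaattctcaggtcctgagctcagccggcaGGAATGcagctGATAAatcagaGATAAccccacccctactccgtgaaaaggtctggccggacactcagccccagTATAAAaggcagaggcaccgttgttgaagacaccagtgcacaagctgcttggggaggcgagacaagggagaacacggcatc
Corin: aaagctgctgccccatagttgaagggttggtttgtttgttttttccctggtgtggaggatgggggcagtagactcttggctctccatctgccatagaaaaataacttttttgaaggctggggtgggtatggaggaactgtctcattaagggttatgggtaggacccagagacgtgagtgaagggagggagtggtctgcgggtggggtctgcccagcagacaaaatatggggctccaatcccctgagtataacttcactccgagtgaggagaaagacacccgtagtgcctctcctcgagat

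Positions give the leftmost letter of a match with the start site counted as 0. The Nppa window held the MEIS string at -62, and an NKX2-5 string at -65 shares its last letters with it. The MEIS string was found in 19.2% of the 32851 RefSeq windows of this length. The same Nppa window held the GATA string at -121 and, on the other strand, at -75, with a further NKX2-5 string at -239, the T-box string at -250 and the TATA box at -9. The Nppb window held the GATA string at -94 and -83, the TEAD string at -105 and the TATA box at -31, and none of the other 3 strings. The RefSeq start used for the Nppb window lies after the gene start in the annotation. The Corin window held none of the 6 strings, and all of it lies before the gene start in the annotation. Over all windows the GATA string was present in 25.4%, the NKX2-5 string in 46.4%, the T-box string in 3.98%, the TEAD string in 14.7% and the TATA box in 13.6%. Among the other 5 members, the MEIS string was found in both windows of Furin only. These matches describe letters and not binding.

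In atria the dKO libraries had higher Nppa, Nppb and Furin and lower Corin than controls, while the 3 receptor genes did not pass the test. Of the 8 members, 4 were called at a limma adjusted p under 0.05, 3 higher and 1 lower in dKO, against 7.47% of all 13950 genes tested (4.04% called higher and 3.43% called lower). Groups did not overlap for 5 of 8 members, against 14.1% of all genes. The median log2 difference of the members was 0.33, and that of all genes was -0.0046.

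The level of Nppa in replicates 1 to 4 was 4608, 3876, 3185 and 3640 CPM in control atria and 6604, 5490, 6427 and 5160 CPM in dKO atria. Every dKO atrium stood above every control atrium. The mean was 5920 ± 704 CPM against 3827 ± 594 CPM (SD, n = 4), or 155% of control, a log2 difference of 0.63 (SE 0.14, limma adjusted p = 0.0184). This call was lost with no filter on low values (limma adjusted p = 0.0672) and after quantile normalization (log2 0.41, limma adjusted p = 0.1). It was also lost without control atrium 2, 3 or 4 or dKO atrium 3 (log2 0.55 to 0.64, limma adjusted p 0.0543 to 0.0611), and within the shared title number the difference was 0.49 (limma adjusted p = 0.0524).

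Nppb rose as well. It measured 79.6, 66.0, 59.0 and 87.4 CPM in control atria and 121.5, 187.1, 188.4 and 93.4 CPM in dKO atria. The groups did not overlap, although dKO atrium 4 stood just above the highest control. The mean of 148 ± 47.8 CPM was 202% of the control mean of 73.0 ± 12.9 CPM (SD, n = 4), a log2 difference of 0.96 (SE 0.21, limma adjusted p = 0.0171). The call was lost without control atrium 2 or 3 or dKO atrium 2 or 3 (log2 0.82 to 0.92, limma adjusted p 0.0503 to 0.0563), and within the shared title number the difference was 1.36 (limma adjusted p = 7.21e-05).

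**Figure D1:**
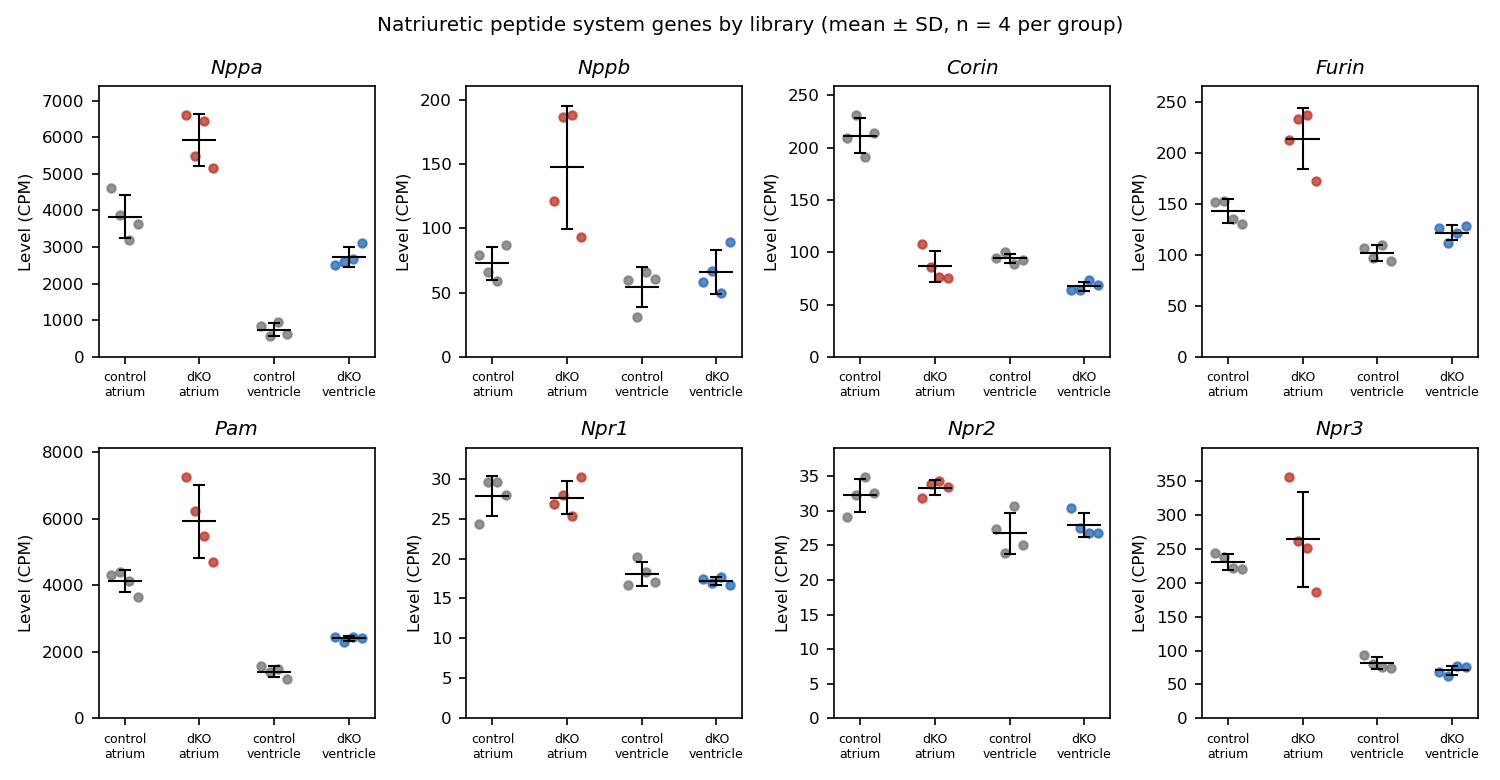
Level of each gene in CPM (vertical axis, from 0) in the 16 libraries by group (horizontal axis). Points are libraries in replicate order, and the line and bars are the mean and SD of 4 libraries. Nppa in dKO ventricles (2518 to 3108 CPM) lies between control ventricles (573 to 956 CPM) and control atria (3185 to 4608 CPM), and Corin in dKO atria (75.8 to 107.9 CPM) lies around the level of control ventricles (89.1 to 99.8 CPM).

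Corin moved against its substrate gene. Control atria held 209.3, 231.1, 190.7 and 214.0 CPM and dKO atria 107.9, 85.7, 75.9 and 75.8 CPM, so the highest dKO library was far below the lowest control. The mean fell to 40.9% of control, from 211 ± 16.6 to 86.3 ± 15.1 CPM (SD, n = 4), a log2 difference of -1.29 (SE 0.11, limma adjusted p = 3.17e-05). The difference within the shared title number was -1.44 (limma adjusted p = 2.99e-05).

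Furin, a widely expressed proprotein convertase that cuts pro-B-type natriuretic peptide among many substrates, lies on chromosome 7 (80388585 to 80405436, minus strand, ENSMUSG00000030530). It measured 152.1, 152.8, 134.9 and 130.1 CPM in control atria and 212.6, 233.1, 236.8 and 172.4 CPM in dKO atria. All dKO atria were higher than all control atria. The mean rose to 150% of control, with a log2 difference of 0.57 (SE 0.098, limma adjusted p = 0.00462), and the difference within the shared title number was 0.62 (limma adjusted p = 0.000246).

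Pam, on chromosome 1 (97795114 to 98095646, minus strand, ENSMUSG00000026335), encodes peptidylglycine alpha-amidating monooxygenase, the major membrane protein of atrial granules. Control atria held 4310, 4399, 4137 and 3649 CPM and dKO atria 7274, 6224, 5480 and 4704 CPM. The groups did not overlap, and the dKO atria were the more scattered, with an SD of 1095 CPM against 335 CPM. The log2 difference of 0.51 did not pass the test (SE 0.14, limma adjusted p = 0.0583), whereas edgeR (adjusted p = 0.0302) and DESeq2 (adjusted p = 0.000199) on recovered reads called it. It was also called without dKO atrium 4 (log2 0.61, limma adjusted p = 0.0116) and within the shared title number (log2 0.42, limma adjusted p = 0.0459). After quantile normalization it was 0.21 (limma adjusted p = 0.455), and with no filter on low values the limma adjusted p was 0.148.

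The receptor genes gave small differences in atria. Npr1 (chromosome 3, 90450591 to 90465866, minus strand, ENSMUSG00000027931) encodes the guanylyl cyclase receptor for atrial and B-type natriuretic peptide. It stood at 27.6 ± 2.06 CPM in dKO and 27.9 ± 2.50 CPM in control atria (SD, n = 4), with a 95% interval of the log2 difference from -0.19 to 0.17 (limma adjusted p = 0.963). Npr2 (chromosome 4, 43631935 to 43651244, plus strand, ENSMUSG00000028469), whose product answers mainly to C-type natriuretic peptide, stood at 33.4 ± 1.08 and 32.2 ± 2.42 CPM (SD, n = 4; interval -0.10 to 0.20, limma adjusted p = 0.74).

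Npr3 (chromosome 15, 11839896 to 11907287, minus strand, ENSMUSG00000022206) encodes the clearance receptor, which lacks a cyclase domain and is a marker of endocardium in the embryo. It measured 243.8, 238.4, 221.8 and 219.6 CPM in control atria and 356.6, 262.1, 250.9 and 185.7 CPM in dKO atria. The dKO atria lay on both sides of the controls, with replicate 1 far above and replicate 4 below them. The log2 difference of 0.15 had an interval from -0.18 to 0.49 (limma adjusted p = 0.635), and without dKO atrium 1 it was -0.0022. These intervals bound the change in each gene, and a missed threshold does not show equal levels.

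Marker levels of several cell types also differed in dKO atria, by exact tests that were not adjusted over the lists and chambers tested. The 6 pan-myocyte markers summed to 14220 to 16190 CPM in dKO and 17300 to 19870 CPM in control atria, and their mean log2 level was lower by -0.23 (exact permutation p = 0.0286), with 1 of 6 called lower and 0 higher. The 6 smooth muscle and pericyte markers summed to 919 to 1263 CPM against 569.8 to 693.1 CPM (mean log2 difference 0.73, exact permutation p = 0.0286), with 4 of 6 called higher. The 7 fibroblast markers summed to 6134 to 10220 CPM against 5280 to 7092 CPM (0.41, exact permutation p = 0.0571), with 2 of 7 called higher. The 6 epicardial markers summed to 389.3 to 461.1 CPM against 301.1 to 378.3 CPM (0.27, exact permutation p = 0.0286), with 1 of 6 called higher. The 7 endothelial and endocardial markers other than Npr3 gave 0.03 (exact permutation p = 0.6), with 1 of 7 called lower. The 6 atrial myocyte markers gave 0.18 (exact permutation p = 0.0857), with 2 of 6 called higher and 1 lower. The 6 macrophage markers gave 0.36 (exact permutation p = 0.114), with 1 of 6 called higher. None of the markers in these lists was at 0 reads in any library. Their part in the atrial results was not tested.

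In ventricles the pattern was led by Nppa, which rose more than any other member, with Pam higher and Corin lower. Of the 8 members, 3 were called, 2 higher and 1 lower in dKO, against 2.0% of all genes tested (0.989% called higher and 1.01% called lower). Groups did not overlap for 4 of 8 members, against 8.11% of all genes. The members' median log2 difference was 0.16, beside -0.018 for all genes.

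Control ventricles held 834, 573, 956 and 615 CPM of Nppa and dKO ventricles 2518, 2593, 2672 and 3108 CPM. The lowest dKO ventricle was well above the highest control ventricle, and the highest dKO ventricle stayed just under the lowest control atrium. The mean rose 3.66-fold, from 745 ± 182 to 2722 ± 264 CPM (SD, n = 4), a log2 difference of 1.90 (SE 0.14, limma adjusted p = 3.36e-05). Within the shared title number it was 1.93 (limma adjusted p = 0.000231).

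Nppb, its neighbour, did not pass the test in ventricles. It measured 59.9, 31.2, 66.3 and 60.7 CPM in control ventricles and 58.1, 66.8, 49.9 and 89.4 CPM in dKO ventricles, and the groups overlapped. The log2 difference of 0.29 had a 95% interval from -0.17 to 0.76 (limma adjusted p = 0.632), an interval whose upper bound lies below the lower bound of 1.59 for Nppa. The value was 0.05 without control ventricle 2 and 0.14 without dKO ventricle 4.

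Pam in ventricles separated cleanly. The level was 1582, 1390, 1471 and 1176 CPM in controls and 2451, 2307, 2460 and 2406 CPM in dKO, and the dKO ventricles lay within a narrow range. The mean rose 1.71-fold (log2 0.78, SE 0.082, limma adjusted p = 0.000313), and within the shared title number the difference was 0.68 (limma adjusted p = 0.00887).

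Corin fell in ventricles as well, by a smaller step. Control ventricles held 94.6, 99.8, 89.1 and 92.8 CPM and dKO ventricles 64.0, 63.9, 73.6 and 68.2 CPM, without overlap. The mean fell to 71.6% of control (log2 -0.48, SE 0.057, limma adjusted p = 0.000798), and within the shared title number the difference was -0.50 (limma adjusted p = 0.0356).

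Furin in ventricles lay at the edge of the test. The values were 106.7, 96.7, 109.7 and 93.8 CPM in controls and 126.0, 111.0, 121.4 and 127.7 CPM in dKO, so that the groups did not overlap. The log2 difference of 0.26 missed the threshold (SE 0.062, limma adjusted p = 0.0594), but edgeR (adjusted p = 0.0464) and DESeq2 (adjusted p = 0.0022) called it. It was 0.19 within the shared title number (limma adjusted p = 0.536).

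The receptors again did not pass the test in ventricles. Npr1 stood at 18.1 ± 1.54 CPM in controls and 17.2 ± 0.486 CPM in dKO (SD, n = 4), with an interval of the log2 difference from -0.24 to 0.11. Npr2 stood at 26.8 ± 2.96 CPM in controls and 27.9 ± 1.74 CPM in dKO (SD, n = 4; interval -0.12 to 0.24). Npr3 stood at 81.0 ± 8.88 CPM in controls and 70.5 ± 6.67 CPM in dKO (SD, n = 4; interval -0.37 to -0.019), and its limma adjusted p was 0.331.

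Pan-myocyte markers in ventricles summed to 11120 to 13950 CPM in dKO and 10630 to 13830 CPM in controls, a mean log2 difference of -0.0042 (exact permutation p = 0.914; 0 of 6 called). Fibroblast markers gave 0.0058 (exact permutation p = 0.943; 0 of 7 called) and smooth muscle markers 0.086 (exact permutation p = 0.514; 0 of 6 called). The 6 ventricular myocyte markers were lower by -0.26 (exact permutation p = 0.0286; 2 of 6 called lower), with sums of 17640 to 19200 CPM in dKO and 19920 to 21870 CPM in controls. The 6 atrial myocyte markers were higher by 0.34 without reaching 0.05 (exact permutation p = 0.0571; 2 of 6 called higher), with sums of 1513 to 1685 CPM against 1182 to 1326 CPM. The list did not move as a whole. From control to dKO, mean CPM rose for Fgf12 (0.562 to 4.02), Myl4 (1011 to 1390) and Sln (3.28 to 3.89). Means were lower in dKO for Myl7 (202.9 to 196.2), Mybphl (1.78 to 1.55) and Nr2f2 (20.6 to 18.9). None of the atrial markers was at 0 reads in any library. The exact p-values of these lists were likewise not adjusted, and the part of these shifts in the ventricular results was not tested.

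**Figure D2:**
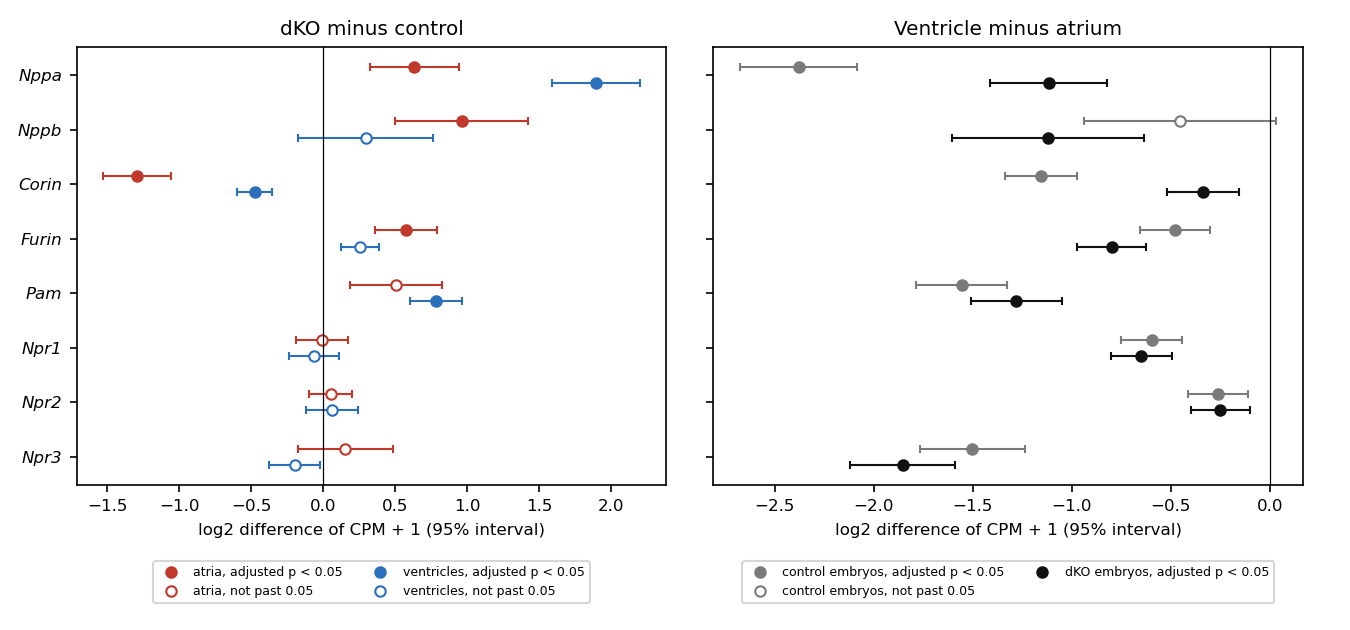
Differences in log2(CPM + 1) for each gene (vertical axis), with 95% intervals. The left panel gives dKO minus control in atria (red) and ventricles (blue), and the right panel gives ventricle minus atrium in control (grey) and dKO (black) embryos. Filled points passed the test. Nppa has the largest dKO effect of the 8 genes in ventricles (1.90), and Corin in atria (-1.29).

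The dKO effect itself differed between chambers for Nppa and Corin. A fit that joined both chambers and blocked on the embryo tested the ventricular minus the atrial dKO effect, and 2 of 8 members were called, both with positive values, against 2.64% of all genes (1.31% positive and 1.33% negative). For Nppa the ventricular effect was larger by a log2 of 1.26 (SE 0.20, limma adjusted p = 0.000966). For Corin the difference was 0.82 (SE 0.12, limma adjusted p = 0.000583), since the fall was deeper in atria. The remaining 6 genes did not pass the test, among them Nppb at -0.67 (interval -1.35 to 0.021, limma adjusted p = 0.395), Furin at -0.32 (limma adjusted p = 0.207) and Pam at 0.28 (limma adjusted p = 0.48). Nppb and Furin thus passed the test in atria and not in ventricles, and Pam in ventricles and not in atria, without a called difference between the chambers. After quantile normalization the chamber difference of Pam was 0.58 and was called (limma adjusted p = 0.0253). Without dKO atrium 4 the count of called members rose to 4, with Furin at -0.42 (limma adjusted p = 0.0144) and Npr3 at -0.51 (limma adjusted p = 0.046).

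The chamber bias of the system was towards the atria. In control embryos 7 of 8 members were lower in ventricles, where 46.9% of all genes were called and 20.5% were called lower. The log2 difference was -2.38 for Nppa, -1.56 for Pam, -1.50 for Npr3, -1.16 for Corin, -0.60 for Npr1, -0.48 for Furin and -0.26 for Npr2 (limma adjusted p 1.51e-10 to 0.00535). Nppb gave -0.45 and was not called (limma adjusted p = 0.116). Groups did not overlap for 6 of 8 members, against 43.3% of all genes.

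In dKO embryos 8 of 8 members were lower in ventricles, where 49.1% of all genes were called and 22.5% were called lower. Groups did not overlap for 8 of 8 members, against 39.3% of all genes. The chamber difference of Nppa was -1.12 there and that of Corin -0.34, both smaller than in controls, as tested above. Nppb reached -1.12 (limma adjusted p = 0.000553), and Npr3 -1.86. The other values were -1.28 for Pam, -0.80 for Furin, -0.65 for Npr1 and -0.25 for Npr2.

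Levels of different genes were compared per kilobase of annotated exon. Nppa, Pam and Nppb led in this order in all 4 groups, and their libraries did not overlap. The mean of Nppa was 4425 CPM per kb in control atria, 6844 in dKO atria, 860.6 in control ventricles and 3147 in dKO ventricles. Among the genes with an annotated length it ranked 3 to 6 in control atria and 1 to 2 in dKO atria, 26 to 37 in control ventricles and 9 to 10 in dKO ventricles. Pam ranked 70 to 99, 37 to 77, 285 to 375 and 150 to 183 in the same groups.

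The processing enzymes and receptors followed at lower levels per kilobase. In control atria the order was Corin (39.1 CPM per kb), Npr3 (24.6), Furin (15.52), Npr2 (6.91) and Npr1 (5.82), with no overlap between neighbours. In dKO atria it was Npr3 (28.1), Furin (23.3) and Corin (15.99), and libraries of Npr3 and Furin overlapped, as did those of Furin and Corin. Control ventricles kept Corin (17.4) above Furin (11.1) and Npr3 (8.63) without overlap. In dKO ventricles Furin (13.2) and Corin (12.5) overlapped. Npr2 stood above Npr1 without overlap in every group.

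The balance between the precursor genes and the proteases was measured within each library, where scaling cancels. Each library of dKO atria held 61.2 to 84.7 Nppa reads per Corin read, and each control atrium 16.7 to 22.0. Means were 69.5 ± 10.5 and 18.1 ± 2.60 (SD, n = 4). In ventricles the ratio was 36.3 to 45.6 in dKO and 5.74 to 10.7 in controls, with means of 40.5 ± 3.86 and 7.98 ± 2.25. Gene length affects this ratio equally in all groups. Both differences had an exact permutation p of 0.0286, the smallest that 70 arrangements allow, and 0.0458 after adjustment over the 8 ratios tested. Nppa was higher and Corin lower in dKO without overlap in both chambers. This p was therefore fixed by the levels given above and is no further support.

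Furin stood at 1.48 ± 0.297 times the level of Corin per kilobase in dKO atria and at 0.398 ± 0.0312 in control atria (SD, n = 4, exact permutation p = 0.0286, adjusted 0.0458). In ventricles the ratio was 1.06 ± 0.0832 and 0.638 ± 0.0701 (SD, n = 4, exact permutation p = 0.0286, adjusted 0.0458). Furin exceeded Corin per kilobase in all dKO atria and in no control library. Furin was higher and Corin lower in dKO without overlap in both chambers, so these p-values were also fixed by the levels. In ventricles limma did not call the Furin part (limma adjusted p = 0.0594). The adjusted p-values of the other ratios rest in part on these fixed ones.

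Nppa stood at 38.5 ± 7.32 times the level of Nppb per kilobase in dKO ventricles and at 12.8 ± 3.03 in control ventricles (SD, n = 4, exact permutation p = 0.0286, adjusted 0.0458). In atria this ratio was 39.1 ± 12.1 in dKO and 47.9 ± 7.11 in controls and did not pass the test (exact permutation p = 0.229, adjusted 0.262). The share of Npr3 in the summed receptor level per kilobase was 67.7% ± 6.51 and 65.9% ± 2.74 in dKO and control atria (SD, n = 4, exact permutation p = 0.686, adjusted 0.686). In ventricles it was 43.9% ± 2.86 and 47.5% ± 3.29 (exact permutation p = 0.143, adjusted 0.191).

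**Figure D3:**
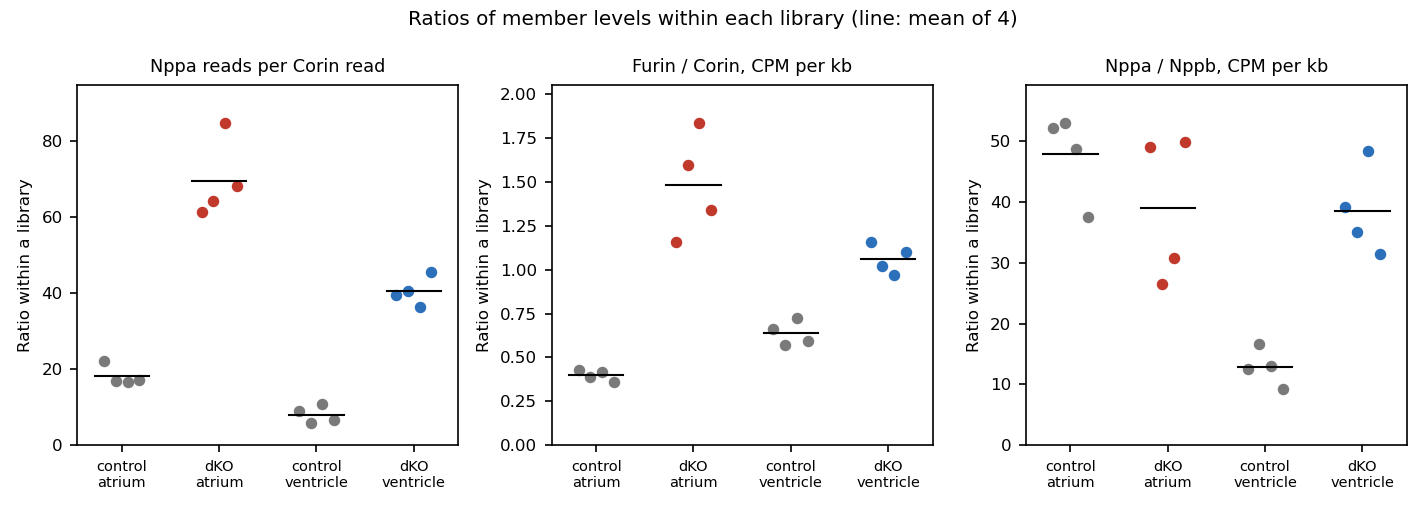
Ratios within each library (vertical axes, from 0) by group (horizontal axis), with points for libraries and a line at the mean of 4. Nppa reads per Corin read (left) and Furin to Corin per kb (middle) are higher in all dKO libraries than in the controls of their chamber, and Nppa to Nppb per kb (right) separates the groups only in ventricles (31.4 to 48.4 in dKO, 9.15 to 16.6 in controls).

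The genes around Nppa and Nppb showed no dKO effect that limma called. In the window of 150 kb on each side 9 other tested genes were compared, of which 0 were called by limma in atria or in ventricles, with 2 at an unadjusted p under 0.05 in each. Over all genes limma called 7.47% in atria and 2.0% in ventricles, so 0 of 9 is no result about this locus. On recovered reads, edgeR called 0 in either chamber, against 7.39% and 1.86% of all genes. DESeq2 called 0 in atria, against 11.1%, and 1 in ventricles, against 3.36%. That gene was Clcn6, which encodes a chloride transporter next to Nppa, with 30.8 ± 2.94 CPM in control and 24.4 ± 2.69 CPM in dKO ventricles (SD, n = 4, log2 -0.33, limma adjusted p = 0.107, DESeq2 adjusted p = 0.0413). Plod1, a collagen lysyl hydroxylase gene, gave 0.17 in atria (limma adjusted p = 0.0952). Mfn2, a mitochondrial fusion gene, gave -0.14 in atria and -0.04 in ventricles. Miip, Fv1, Agtrap, Mad2l2 and 2510039O18Rik gave log2 differences from -0.15 to 0.21 over both chambers.

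Gm13054 is annotated on the strand opposite to Nppa and shares 532 bases of exon with it, out of the 865 exon bases of Nppa. Its mean level was 3.11 CPM, against 3304 CPM for Nppa. The level was 4.29 ± 0.627 CPM in control and 6.20 ± 1.36 CPM in dKO atria (SD, n = 4), and 0.445 ± 0.238 and 1.51 ± 1.02 CPM in ventricles, with no call in either (limma adjusted p = 0.157 and 0.253). The scale of log2(CPM + 1) understates changes at such low levels. On recovered reads its ventricular log2 difference was 1.85 by edgeR (adjusted p = 0.204) and 1.85 by DESeq2 (adjusted p = 0.0657), neither called. Both values were close to the 1.89 that each tool gave for Nppa. Whether the counting used strand is not given in the sources used here, so reads of Gm13054 and Nppa cannot be told apart and the values of Gm13054 are uncertain. The same holds for Gm12473 at Npr2 (1.21 CPM), and on the same strand B230216N24Rik overlaps Pam (0.815 CPM). In all, 7 of 8 members share exon bases with another annotated gene, and Nppb does not.

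**Figure D4:**
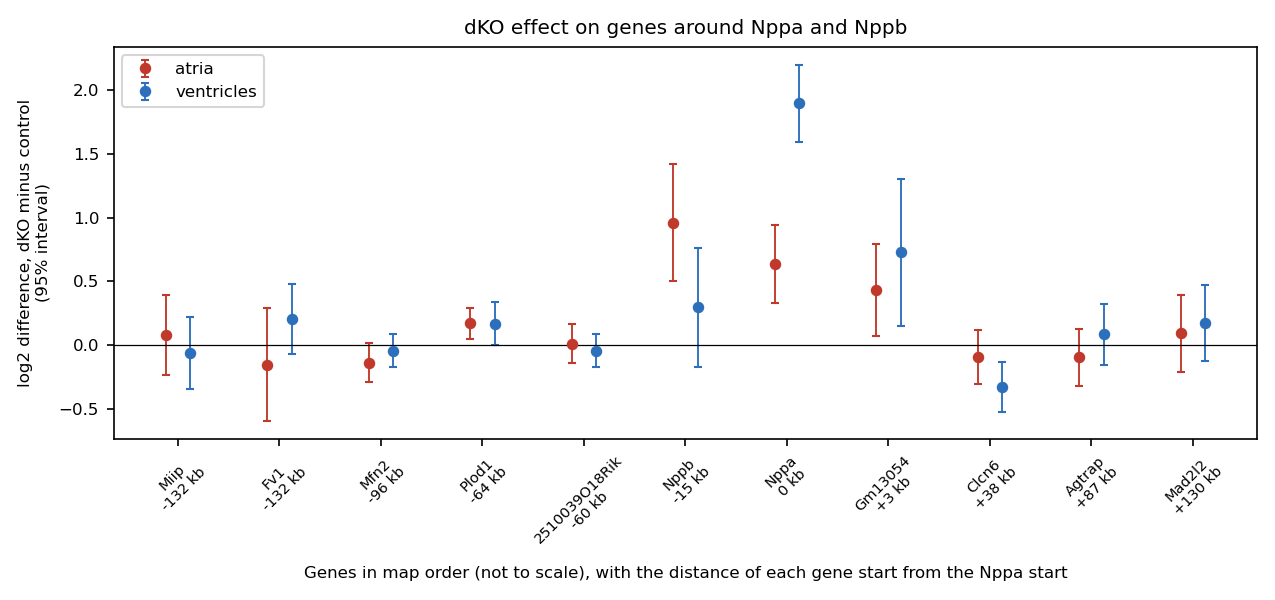
Difference in log2(CPM + 1), dKO minus control, with 95% intervals (vertical axis) for Nppa, Nppb and 9 other genes within 150 kb of them in map order (horizontal axis), in atria (red) and ventricles (blue). On this scale Nppa in ventricles (1.90) stands above the 9 genes other than Nppb, whose estimates range from -0.33 to 0.73, and Nppb is raised in atria (0.96). The 0.73 belongs to Gm13054 in ventricles, whose level is low, so that this scale understates its change. On recovered reads edgeR gave 1.85 for Gm13054 (adjusted p = 0.204) and 1.89 for Nppa there.

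Further genes of the pathway were read from lists chosen with earlier results of these data known, so their counts of called genes are a description. Among 6 tested genes of ligand clearance and other processing, limma called 0 in atria and 0 in ventricles, with 3 and 2 at an unadjusted p under 0.05. Over all genes limma called 7.47% and 2.0%, so 0 of 6 is no result about the list. On recovered reads edgeR called 0 in either chamber, and DESeq2 called Pcsk5 in atria and Pcsk6 in ventricles, both proprotein convertase genes. DESeq2 called 11.1% of all genes in atria and 3.36% in ventricles. The level of Pcsk6 was 12.6 ± 2.08 CPM in control and 8.21 ± 1.13 CPM in dKO ventricles (SD, n = 4, limma adjusted p = 0.056, DESeq2 adjusted p = 0.00582). Its ventricular minus atrial dKO effect was -0.96 (limma adjusted p = 0.0102), the 1 call of the list in that test, where 2.64% of all genes were called. The genes with the highest mean level of the list over all 16 libraries, Ide and Dpp4, encode peptidases and gave -0.13 and 0.05 in atria and -0.0008 and -0.35 in ventricles. The median over the list was 0.19 in atria and -0.21 in ventricles.

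The list of soluble guanylyl cyclase and cyclic GMP-dependent kinase genes joins a parallel source of cyclic GMP with its targets, and 2 of 6 were called higher in dKO atria, against 4.04% of all genes. Both encode subunits of the nitric oxide-sensitive cyclase, which does not depend on the natriuretic peptide receptors: Gucy1b3 rose from 86.4 ± 4.18 to 116 ± 3.75 CPM (SD, n = 4, log2 0.43, limma adjusted p = 0.000543) and Gucy1a3 from 191 ± 19.1 to 256 ± 38.4 CPM (log2 0.41, limma adjusted p = 0.0453). In ventricles limma called 0 of 6, against 2.0% of all genes, with 1 at an unadjusted p under 0.05, and edgeR and DESeq2 called 0. There Gucy1a3 gave 0.05, and Vasp, an actin regulator gene whose product is a substrate of the kinase, gave 0.04. The kinase gene Prkg1 gave -0.0076 in atria and 0.33 in ventricles, neither called.

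Among 7 cyclic GMP phosphodiesterase genes, limma called 2 lower in atria, where 3.43% of all genes were called lower, and 1 lower in ventricles, where 1.01% were. Pde3b, whose product breaks down cyclic AMP and is inhibited by cyclic GMP, fell from 45.9 ± 1.45 to 24.1 ± 2.28 CPM in atria (SD, n = 4, log2 -0.91, limma adjusted p = 2.63e-05) and from 35.9 ± 2.12 to 27.8 ± 0.777 CPM in ventricles (log2 -0.36, limma adjusted p = 0.0087). Pde2a, a phosphodiesterase stimulated by cyclic GMP, fell from 10.2 ± 4.18 to 3.21 ± 2.23 CPM in atria (log2 -1.50, limma adjusted p = 0.0264), a call that edgeR on recovered reads did not make. The list median was -0.14 in atria and 0.12 in ventricles.

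The secretory granule list had 11 genes, of which 9 were in the deposited table and 4 were tested: Cpe, Vamp1, Vamp2 and Rab3a. Chga, Chgb, Scg2, Scg3, Scg5, Pcsk1 and Pcsk2 were absent or below the filter, so the list says little about granule proteins. Of the 4 tested genes limma called 1 higher in atria, against 4.04% of all genes. Cpe, encoding carboxypeptidase E, which trims prohormones, rose from 316 ± 16.4 to 419 ± 50.3 CPM in dKO atria (SD, n = 4, log2 0.40, limma adjusted p = 0.012). In ventricles limma called 0 of 4, against 2.0% of all genes, with 0 at an unadjusted p under 0.05 and 0 by edgeR or DESeq2. Cpe gave 0.05 there, and Vamp2, a vesicle fusion protein gene, -0.03.

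Of 22 transcription factors linked to natriuretic peptide promoters, limma called 1 higher in atria, where 4.04% of all genes were called higher. In ventricles it called 3 higher and 1 lower, against 0.989% and 1.01% of all genes. Tbx2, a T-box repressor that restrains the working myocardial programme, rose from 15.2 ± 2.32 to 29.3 ± 7.54 CPM in atria (SD, n = 4, log2 0.88, limma adjusted p = 0.00916) and from 12.2 ± 1.09 to 20.6 ± 3.49 CPM in ventricles (log2 0.70, limma adjusted p = 0.00718). In ventricles Tbx20, a T-box factor, rose by 0.35 (limma adjusted p = 0.0109). Tbx5, a T-box activator of Nppa, rose there by 0.41 (limma adjusted p = 0.0249), from 35.5 ± 1.65 to 47.8 ± 6.22 CPM. Irx4, a ventricular homeobox factor, fell from 81.3 ± 8.003 to 56.6 ± 2.24 CPM (log2 -0.51, limma adjusted p = 0.00156). DESeq2 on recovered reads called 6 of the list in atria, against 11.1% of all genes, and 8 in ventricles, against 3.36%.

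Of 12 genes of stretch and the fetal programme, limma called 1 higher and 2 lower in atria, against 4.04% and 3.43% of all genes. In ventricles it called 2 higher and 2 lower, against 0.989% and 1.01%. Ankrd1, a stress-responsive titin-binding protein gene, rose from 1044 ± 147 to 1612 ± 309 CPM in atria (SD, n = 4, log2 0.62, limma adjusted p = 0.0283) and from 491 ± 68.3 to 821 ± 35.0 CPM in ventricles (log2 0.75, limma adjusted p = 0.00053). Xirp2, encoding a repeat protein of intercalated discs, rose in ventricles by 1.23 (limma adjusted p = 0.0105). Fhl2, a LIM-domain protein gene, fell in atria by 1.38 (limma adjusted p = 0.00146), and the vasodilator peptide gene Adm fell there by 0.44 (limma adjusted p = 0.0185). In ventricles Rcan1, a calcineurin regulator gene, fell by 0.45 (limma adjusted p = 0.00104). Fhl2 was lower there too on recovered reads, with log2 -0.52 by edgeR (adjusted p = 0.0474) and -0.52 by DESeq2 (adjusted p = 0.0291). The list medians were -0.24 and -0.16.

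The genes whose profiles over the 16 libraries lay nearest to each member were found by the root-mean-square (RMS) difference of log2 levels, each centred on its own mean. This measure is a description of libraries that share chamber and genotype. For Nppa, whose own spread around its mean had an RMS of 1.14, the nearest were Chrm2, the muscarinic receptor gene of the heart (0.45), Pam (0.47) and Gstt1 (0.53). Chrm2 measured 66.0, 114, 25.0 and 56.2 CPM on average in control atria, dKO atria, control ventricles and dKO ventricles. Nppb (own RMS 0.64) had Dock10 (0.28), Nexmif (0.31) and Dtnb (0.33).

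Among the processing genes, Pam was nearest to Ston2 (RMS difference 0.22), Rfxank (0.23) and Chrm2 (0.23). Corin (own RMS 0.63) was nearest to Itga6, Ednra and Tg (each 0.23), and Furin to Axl (0.11), Nexmif (0.12) and Map1b (0.12). Itga6, an integrin subunit gene, measured 329 CPM in control atria, 182 in dKO atria, 142 in control ventricles and 128 in dKO ventricles on average. Among the receptors, Npr3 was nearest to Plvap (0.15), a gene of the endothelial and endocardial marker list, then Adgrg6 and Slc16a12 (both 0.18). Npr1 was nearest to Slc39a13, Igfbp4 and Slc48a1 (0.086 to 0.10), and Npr2 to Pxn, Alg6 and Usp11 (0.074 to 0.083).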

How the data were processed

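Polyadenylated RNA of 16 libraries was sequenced. The authors trimmed reads with cutadapt and quantified them with RSEM 1.3.1 on GRCm38, per the submitters' processing notes, and deposited counts normalized for library size (CPM). How CPM were normalized, which genes were filtered and which annotation and strand setting were used is not given in the sources used here. Whole reads were recovered from 100% of the values (tolerance 0.001). A floor of 3 reads equalled 0.110 to 0.312 CPM per library. Replicates within a group differed by 5.9 to 26.9 times the counting variance (chi-square per degree of freedom, 24 pairs), so no library was a copy of another.

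The fits used log2(CPM + 1), which understates changes of low genes, and were run on 13950 genes, those averaging 1 CPM or more over the libraries. The test was limma 3.58.1 in R 4.3.3 with a mean-variance trend, two-sided, Benjamini-Hochberg adjusted over all genes, with calls at 0.05. Each chamber was fitted alone for dKO effects. Chamber comparisons and the difference of effects used all 16 libraries with embryo as a block, since each embryo gave both chambers (consensus correlation 0.108). Replicates are separate embryos. Genotypes were not paired, since the replicate numbers mark no shared litter: the protocol names 4 litters with 1 embryo of each genotype, and the title numbers do not match this. Single values used two-sided exact permutation tests of 4 against 4 libraries, adjusted over tests only for the ratios. Intervals of log2 differences are 95% intervals.

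Named genes are the members, Meis1 and Meis2, up to 3 called genes of each list per dKO comparison with the smallest adjusted p (where none was called, the 2 highest in level), tested genes within 150 kb of Nppa or Nppb (1 is not reported here), and the 3 genes nearest in profile to each member, without unnamed models. Tbx5 in ventricles, Prkg1, Pcsk5, Pcsk6 and the neighbours singled out were described after their values were seen. Members and lists were chosen with earlier results of these data known. IDs of 16096 of 16118 genes matched GENCODE M21, which gave GRCm38 coordinates and exon lengths, and promoter windows came from RefSeq (GRCm38.p6), with windows found for all 8 members. Alternatives were pseudocounts of 0.5 and 5, no filter, a mean of at least 5 CPM, re-centring, quantile normalization, edgeR 4.0.16 and DESeq2 1.42.0 on recovered reads, title number as a covariate, embryos of the shared title number alone, embryo as a block added or left out, and leaving out each library. The fitting was tested on simulated data.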

Additional observations from a re-analysis of the deposited data

Results flagged for a closer look

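The difference between dKO and control differed between ventricles and atria for Nppa by a log2 of 1.26 (limma adjusted p = 0.000966), with all dKO libraries above all controls in both chambers. For Corin it differed by 0.82 (limma adjusted p = 0.000583), with all dKO libraries below all controls in both chambers. Both differences come from the interaction test over 16 libraries. In the 32 sets of 4 libraries (8 genes in 4 groups), 0 libraries lay beyond Dixon's 95% critical value, where chance alone gives about 1 in 20 sets.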

How the results depend on the processing

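The ventricular calls of Nppa (log2 1.78 to 2.03), Pam (0.68 to 0.84) and Corin (-0.52 to -0.45), and the atrial calls of Corin (-1.44 to -1.24) and Furin (0.52 to 0.67), held in all 19 alternatives, as did the chamber difference of the dKO effect for Nppa and Corin in all 25. The atrial call of Nppa was lost with no filter (0.63, limma adjusted p = 0.0672), after quantile normalization (0.41, 0.1) and within the shared title number (0.49, 0.0524), and ranged from 0.55 to 0.73 with single libraries left out. Nppb in atria ranged from 0.82 to 1.16 with single libraries left out. The number of called members in atria ranged from 2 (without control atrium 2 or 3 or dKO atrium 3) to 5, and that for the difference of effects from 2 to 4 (without dKO atrium 4). With embryo as a replicate block over 16 libraries, Pam in atria was called (0.51, limma adjusted p = 0.00681) and the ventricular count stayed at 3. Signs turned for uncalled differences near 0. With title number as a covariate, Npr1 in atria became 0.0231 and Npr3 in atria -0.0458. With single libraries left out, they ranged from -0.0727 to 0.0274 and from -0.0022 to 0.31, and the difference of effects from -0.0908 to 0.007 for Npr1 and from -0.0380 to 0.0733 for Npr2. The cause of these changes was not tested, and fits that leave libraries out also rest on fewer libraries. Over all genes, ventricular calls were 249 higher and 220 lower by DESeq2, and 45 and 34 within the shared title number, against 138 and 141. At 4 libraries a group, the intervals of the receptor genes set the limit on what could be detected.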
